A study of Mus musculus with 9 samples.

Results

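Hox genes encode homeodomain transcription factors and lie in 4 clusters (Hoxa, Hoxb, Hoxc and Hoxd) on different chromosomes. Within a cluster they are numbered by paralogue group, from the 3' end, whose members are used early and towards the head in the embryo, to the 5' end, whose members are used late and towards the tail. The adult gut keeps part of this code, and the genes of group 13 are known for their part in forming the hindgut, from which most of the colon arises. The genes described here were all protein-coding genes of the mouse annotation GENCODE M21 whose symbol is Hox, a cluster letter and a number. There were 39 of them among the 48795 genes in the table, 11 in Hoxa, 10 in Hoxb, 9 in Hoxc and 9 in Hoxd. Of these, 24 had a mean of 10 normalised counts or more over all libraries and were tested together with 12741 genes in all. The other 15 were under that minimum.

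The levels were read in colon organoids, hollow epithelial cultures raised in gel from the crypts of the colon, all kept in WENR, a medium supplemented with Wnt3a that holds them in a regenerative, stem cell-like state. WT organoids and AHR KO organoids, the latter lacking the aryl hydrocarbon receptor (AHR), a ligand-activated transcription factor, were given the solvent DMSO or 5 nM FICZ, a high-affinity AHR ligand, for 4 h. There were 2 libraries of WT DMSO (numbered 2 and 3), 3 of WT FICZ (1, 2 and 3), 2 of AHR KO DMSO (1 and 3) and 2 of AHR KO FICZ (1 and 3). Per the methods of the study, the AHR KO mice were Vil-cre AHR fl/fl, in which the Villin promoter drives Cre in the intestinal epithelium, WT mice were littermates on a C57BL/6 background, and crypts came from the whole colon. The part of the colon that each culture descended from is not given in the sources used here, nor is what the library numbers mark. The methods describe the cultures as coming from biological replicates of each genotype, but which libraries share a mouse is not given, so the p-values measure the spread between these libraries. With 2 numbers for AHR KO and 3 for WT, a difference between genotypes and a difference between these particular cultures cannot be told apart.

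The libraries summed to between 23177058 and 25033827 normalised counts. The spacing of low values put the depth at roughly 21.5 to 30.1 M reads. Ahr itself was read over all its exons, deleted or not. It gave 783 to 858 normalised counts in WT and 1346 to 1443 in libraries labelled AHR KO. Its total therefore does not check the labels. The AHR target Cyp1b1 did separate them, with 1078 to 10599.6 normalised counts in WT against 25.4 to 222 in AHR KO. Cyp1a1, another AHR target, still rose under FICZ in AHR KO, from 0 and 2.93 to 100.3 and 138.8 normalised counts. All 13 epithelial markers were detected in every library. The immune markers Ptprc and Lyz2, the fibroblast markers Col6a2 and Lum and the glial markers S100b and Sox10 were listed at 0 throughout, and the muscle markers Acta2, Des and Myh11 did not exceed 3.31 normalised counts. Other markers of these lists were detected. Ret, a receptor on the neural list, stood at 48.3 to 98.5, and Elavl4, also on that list, at 11.3 to 85.8. On the immune list Cd68 stood at 475 to 712 and Csf1r at 5.86 to 17.4. Pdgfrb, on the fibroblast list, stood at 15.3 to 110.

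The members that passed the test in some comparison were Hoxb13, Hoxd13, Hoxa13, Hoxa7, Hoxb8, Hoxb6 and Hoxd8. For 5 of them the RefSeq table used here (GRCm38.p6) holds the promoter, from 250 bases before the start site to 50 after it, and these are shown 5' to 3' so that the genes that differed with genotype or FICZ can be compared at the sequence level. Capitals mark GCGTG or its reverse complement CACGC, the core to which AHR and its partner bind, and TTTAT or its reverse complement ATAAA, a core of sites bound by the caudal-type factors Cdx1 and Cdx2. Hoxd13 is at chr2:74667975-74668274 (plus strand), Hoxa13 at chr6:52260831-52261130 (minus), Hoxa7 at chr6:52218524-52218823 (minus), Hoxb8 at chr11:96281655-96281954 (plus) and Hoxd8 at chr2:74704365-74704664 (plus).
Hoxd13: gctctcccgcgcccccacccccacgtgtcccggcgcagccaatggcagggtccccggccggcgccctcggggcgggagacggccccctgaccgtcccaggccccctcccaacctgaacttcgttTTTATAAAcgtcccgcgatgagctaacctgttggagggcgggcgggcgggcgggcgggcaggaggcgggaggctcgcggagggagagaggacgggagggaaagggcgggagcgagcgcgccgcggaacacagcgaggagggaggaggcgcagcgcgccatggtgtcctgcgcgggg
Hoxa13: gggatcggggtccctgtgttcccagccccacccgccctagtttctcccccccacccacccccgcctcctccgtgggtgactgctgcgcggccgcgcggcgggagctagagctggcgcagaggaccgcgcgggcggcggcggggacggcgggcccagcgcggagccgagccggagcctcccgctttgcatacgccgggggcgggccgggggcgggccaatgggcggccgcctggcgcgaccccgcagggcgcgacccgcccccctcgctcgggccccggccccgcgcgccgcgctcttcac
Hoxa7: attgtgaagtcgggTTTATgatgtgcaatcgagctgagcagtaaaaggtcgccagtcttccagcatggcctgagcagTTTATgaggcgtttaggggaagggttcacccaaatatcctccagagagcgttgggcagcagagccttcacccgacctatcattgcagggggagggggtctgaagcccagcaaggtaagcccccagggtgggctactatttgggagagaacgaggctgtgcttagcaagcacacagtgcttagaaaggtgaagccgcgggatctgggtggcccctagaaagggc
Hoxb8: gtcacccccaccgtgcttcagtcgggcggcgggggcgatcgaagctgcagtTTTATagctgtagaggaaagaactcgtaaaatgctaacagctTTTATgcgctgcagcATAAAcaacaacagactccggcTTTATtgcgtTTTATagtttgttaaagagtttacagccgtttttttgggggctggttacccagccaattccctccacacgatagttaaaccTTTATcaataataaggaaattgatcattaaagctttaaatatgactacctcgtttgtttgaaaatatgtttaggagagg
Hoxd8: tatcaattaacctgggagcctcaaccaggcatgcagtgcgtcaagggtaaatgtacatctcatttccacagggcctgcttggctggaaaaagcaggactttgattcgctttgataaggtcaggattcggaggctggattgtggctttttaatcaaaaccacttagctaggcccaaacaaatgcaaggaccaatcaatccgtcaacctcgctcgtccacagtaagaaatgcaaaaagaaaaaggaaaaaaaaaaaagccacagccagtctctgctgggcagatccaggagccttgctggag

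None of these 5 windows held the AHR core. The TTTAT core was found 6 times in the Hoxb8 window, 2 times in that of Hoxa7 and 2 times, overlapping, in that of Hoxd13, and not in those of Hoxa13 and Hoxd8. Over all 32851 promoters of the table, 32.4% held the AHR core and 40.0% the TTTAT core. Among the 24 promoters of the 22 Hox genes matched by symbol, 9 (37.5%) held each. A match is a run of letters and not a bound site, and its absence here says nothing of sites elsewhere.

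Levels of different genes were compared per kb of exon, as normalised counts divided by the total length of a gene's exons. The Hox transcripts of these organoids were mostly from Hoxb. Summed over a cluster and averaged over the 9 libraries, Hoxb gave 2314 normalised counts per kb, Hoxa 433, Hoxd 119.6 and Hoxc 0.751. By library, Hoxb made up 80.8% ± 2.60 (SD, n = 9) of the summed Hox level, from 77.1 to 85.4%. A single gene, Hoxb9, made up 45.0% ± 3.45 (SD, n = 9), from 40.0 to 49.2%.

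**Figure D1:**
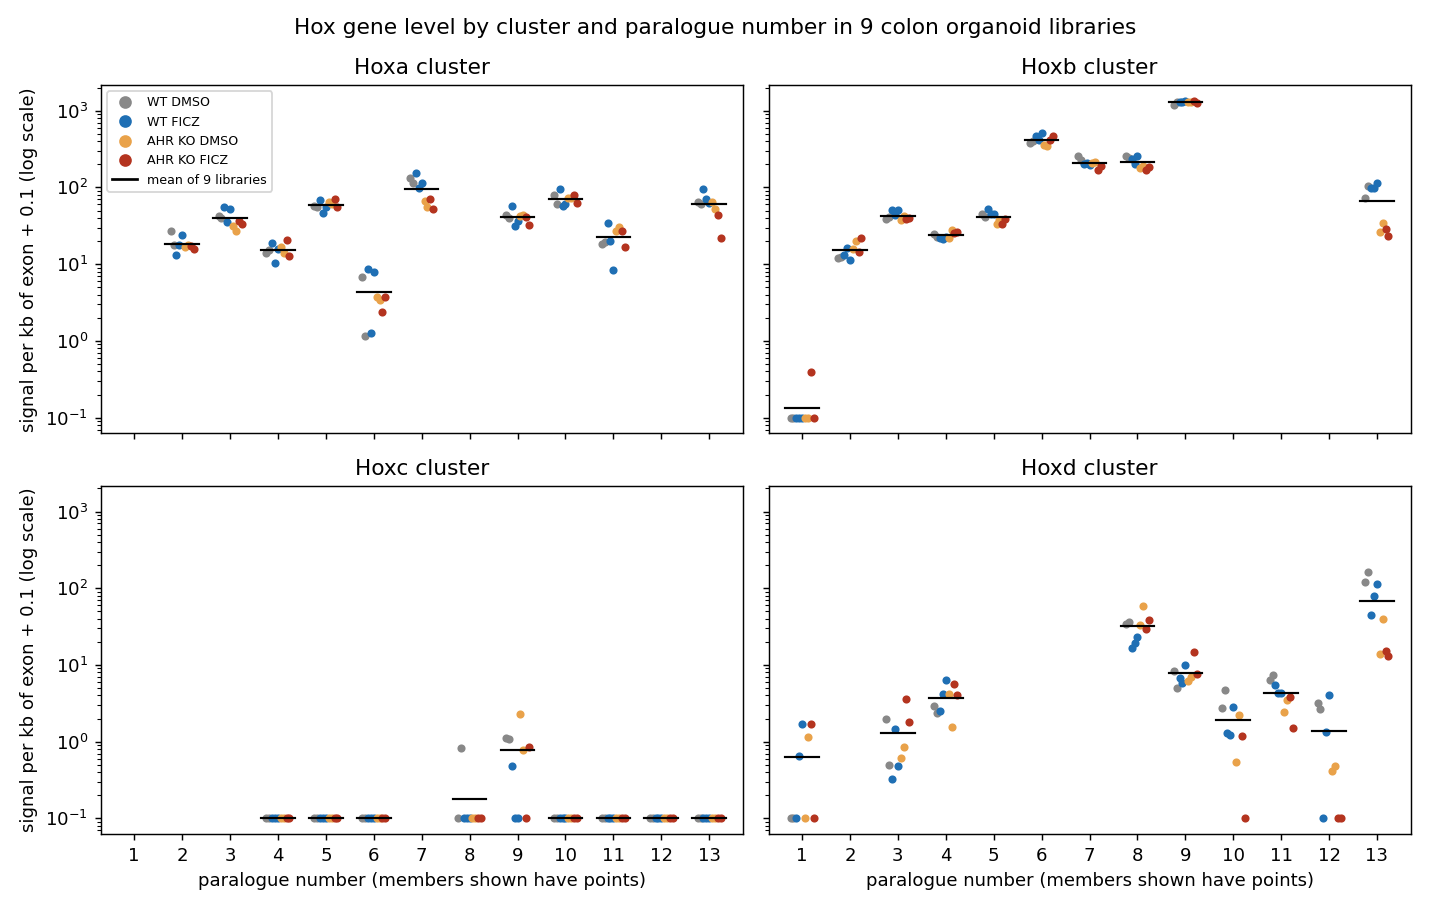
Level of each Hox gene by paralogue number in the 4 clusters, as normalised counts per kb of exon with 0.1 added (log axis). Each point is 1 of the 9 libraries, coloured by group, and the black bar is the mean. Hoxb6 to Hoxb9 stand highest, Hoxc lies on the floor of the plot apart from Hoxc8 and Hoxc9, and the AHR KO points of Hoxb13 and Hoxd13 lie under the WT points.

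Along the Hoxb cluster the level did not climb evenly with paralogue number. The genes of the middle, Hoxb6 to Hoxb9, were highest, and those on either side were lower. Hoxb9 reached 1285 ± 50.8 normalised counts per kb (SD, n = 9), higher than 92.9% of all genes tested on the same scale. Hoxb6 followed at 419.6 ± 56.4, Hoxb8 at 213 ± 33.5 and Hoxb7 at 207 ± 24.3. Hoxb9 was above Hoxb6 and Hoxb6 above Hoxb8 in all 9 libraries without overlap, whereas Hoxb8 and Hoxb7 overlapped, Hoxb8 being the higher in 4 of 9 libraries. Towards the 3' end, Hoxb5 and Hoxb3 were at 41.2 and 42.5 normalised counts per kb, Hoxb4 at 23.7 and Hoxb2 at 15.1. Hoxb1 was listed at 0.673 normalised counts in AHR KO FICZ replicate 1 and at 0 in the other libraries.

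Hoxa was detected along nearly its whole length at lower levels. Hoxa7 led it with 95.3 ± 36.2 normalised counts per kb (SD, n = 9), below Hoxb7 in all 9 libraries, followed by Hoxa10 at 71.3 ± 12.4, Hoxa13 at 60.0 ± 20.2 and Hoxa5 at 59.6 ± 7.73. These neighbours in the order overlapped between libraries, as did all later ones. Hoxa9 (41.1) and Hoxa3 (39.4) came next, then Hoxa11 (22.4), Hoxa2 (18.5) and Hoxa4 (15.3). Hoxa6 was under the minimum, between 0.936 and 7.58 normalised counts. Hoxa3, Hoxa4, Hoxa7, Hoxa11, Hoxb3 and Hoxb2 share exon bases with antisense transcripts (52.9% of the exon length in Hoxb3), so their values could hold reads of the other strand if strand was not used in counting, which is not stated. WT FICZ replicate 1 was the highest library for Hoxa3, Hoxa6, Hoxa7, Hoxa9, Hoxa10, Hoxa11 and Hoxa13, for instance with 323 normalised counts of Hoxa9 against 176 to 246 in the other libraries. This WT library has no DMSO counterpart here.

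Hoxd was low apart from its 5' end and Hoxd8. Hoxd13 was at 67.2 ± 55.2 normalised counts per kb (SD, n = 9), the widest relative spread among the 10 highest members, and Hoxd8 at 32.0 ± 12.5. Hoxd9 (7.81), Hoxd11 (4.24) and Hoxd4 (3.64) passed the minimum with means of 10.7 normalised counts or more. Hoxd4 was the member just inside the minimum and Hoxd3, with a mean of 5.01 normalised counts, just outside it. Hoxd10, Hoxd12 and Hoxd1 were lower still, and Hoxd3, Hoxd4, Hoxd10 and Hoxd11 share exons with each other or with other annotated transcripts, so that their counts could have been split. The Hoxc cluster was near silent. Hoxc4, Hoxc5, Hoxc6, Hoxc10, Hoxc11, Hoxc12 and Hoxc13 were listed at 0 in all 9 libraries, Hoxc8 was at 2.06 normalised counts in WT DMSO replicate 3 alone, and Hoxc9 did not exceed 5.41. A floor of 3 counts per library, which covers counting error only, corresponded to at most 3.30 normalised counts.

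By paralogue group, group 9 held 46.5% of the summed level per kb, nearly all from Hoxb9. Groups 6, 7 and 8 held 14.8, 10.6 and 8.55%, and group 13 held 6.76%. In group 13, Hoxd13, Hoxb13 and Hoxa13 averaged 67.2, 66.6 and 60.0 normalised counts per kb over all libraries, but their order changed with the group. They stood at 143, 88.5 and 63.1 in WT DMSO and at 13.97, 25.8 and 32.6 in AHR KO FICZ, and Hoxc13 was at 0. In groups 6 to 9 the Hoxb gene was the highest paralogue, by a wide margin in groups 6 and 9. Groups 10 to 12 have no Hoxb gene, and there Hoxa10 at 71.3 and Hoxa11 at 22.4 were the highest, with Hoxd12 at 1.28.

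The comparison of AHR KO with WT asks how each gene differed between the libraries of these genotypes, first under DMSO. Hoxb13, Hoxd13, Hoxa7 and Hoxb8 were lower in AHR KO, and no member was higher. These 4 are 16.7% of the 24 tested, against 9.05% of all genes called in that comparison in either direction and 4.83% called lower. The median log2 difference was -0.01 over the members and -0.01 over all genes tested, so the Hox genes did not move as a body. The size of the difference in either direction had a median of 0.21 among members and 0.14 among all genes. Members were less abundant than most genes tested (a median of 131 against 642 normalised counts) and had larger standard errors (a median of 0.24 against 0.11 on the log2 scale).

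Under FICZ, Hoxb13, Hoxd13, Hoxa7, Hoxa13 and Hoxb8 were lower in AHR KO than in WT, and again none was higher. They make up 20.8% of the members tested, near the 20.0% called over all genes in either direction. That count does not set the Hox genes apart. Counted by direction, 10.5% of all genes were called lower and 9.48% higher, and the difference from the members was not tested. The median log2 difference was -0.09 over the members and -0.004 over all genes tested. Its size in either direction had a median of 0.27 among members and 0.16 among all genes. By cluster the calls were 2 of 10 in Hoxa, 2 of 9 in Hoxb and 1 of 5 in Hoxd. All 3 group 13 genes that were tested were among them.

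Across both treatments, all 4 AHR KO libraries lay below all 5 WT libraries for Hoxa7, Hoxb5, Hoxb8, Hoxb13, Hoxd11 and Hoxd13, 6 of 24 members, and above them for 0. Over all genes tested, 15.6% had such a gap in either direction, with 996 genes lower and 989 higher. Within a genotype the library numbers recur under both treatments, except WT FICZ replicate 1, so the comparisons under DMSO and under FICZ are not independent of each other if a number marks a culture.

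**Figure D2:**
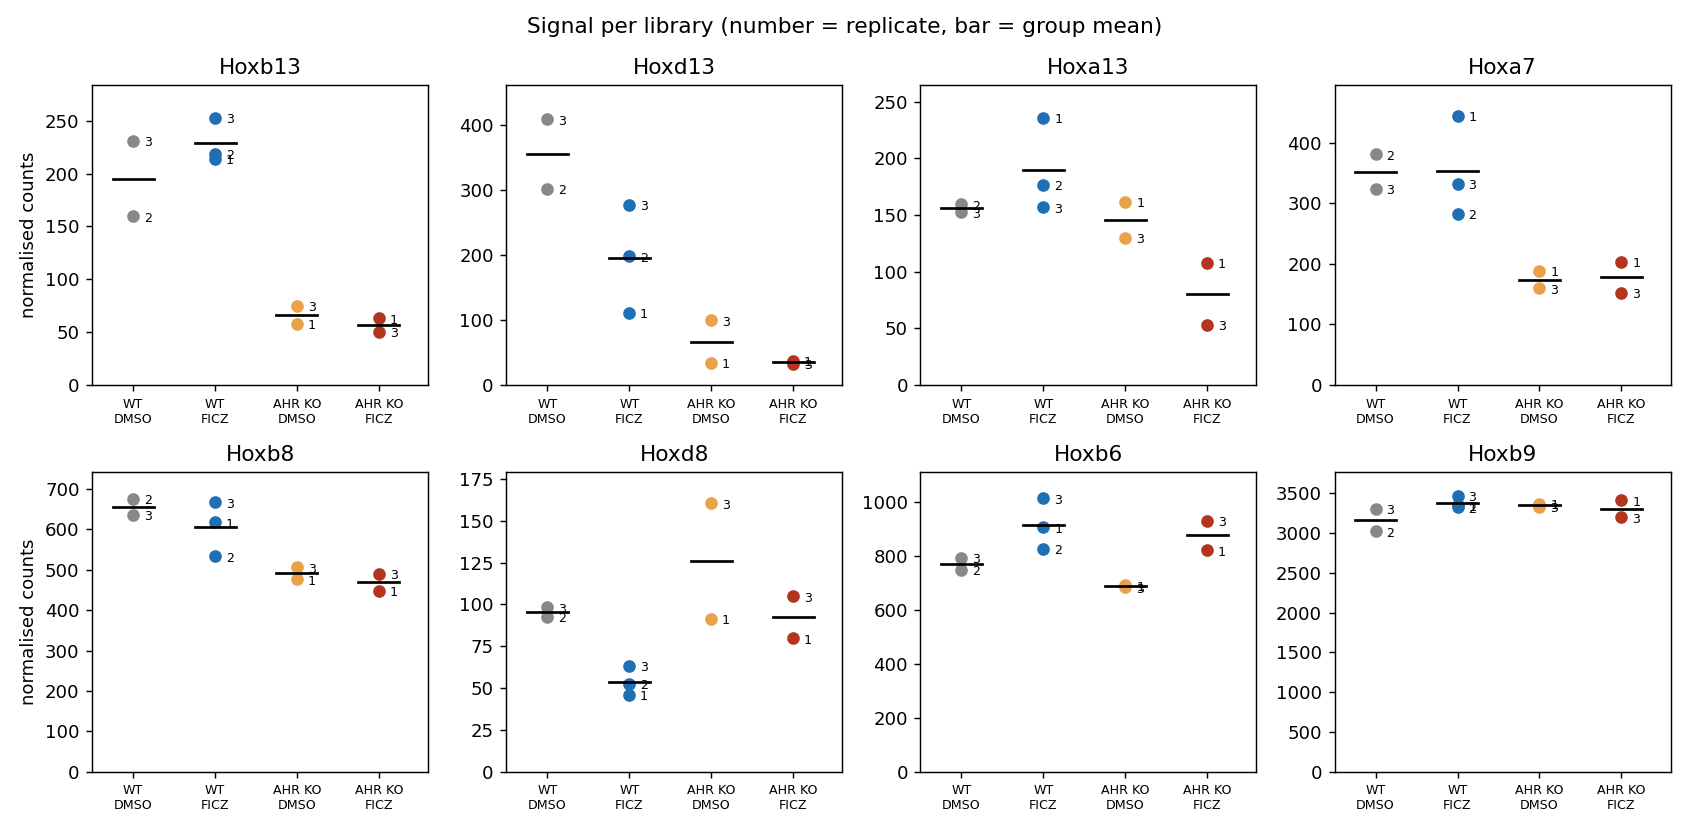
Normalised counts of 8 Hox genes in each library, by group, with axes that start at 0. Points are single libraries with their replicate number and bars are group means. AHR KO lies under WT without overlap for Hoxb13, Hoxd13, Hoxa7 and Hoxb8, for Hoxa13 only under FICZ, and Hoxb9 is level across the 4 groups.

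Gene positions are on GRCm38. Hoxb13 (ENSMUSG00000049604, chr11:96194316-96197447) sits apart from the rest of its cluster at the 5' end and is known for its expression in the distal colon and rectum and in the prostate. It measured 159.7 and 231 normalised counts in the WT DMSO libraries and 214, 219 and 253 under FICZ. In AHR KO it measured 57.7 and 75.0 under DMSO and 63.2 and 50.5 under FICZ. The highest AHR KO library was thus below the lowest WT library by a wide gap. On the log2(value + 1) scale the difference was -1.53 ± 0.22 (SE) under DMSO (adjusted p = 0.00203), a 2.89-fold lower level, and -1.99 ± 0.20 under FICZ (adjusted p = 8.21e-05), 3.98-fold lower. It held in every one of the 20 alternatives tried for each treatment, with log2 differences from -1.79 to -1.27 and from -2.15 to -1.83.

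Hoxd13 (ENSMUSG00000001819, chr2:74668310-74671599), which acts in the limb, hindgut and genital tract, showed the steepest difference of any member. WT DMSO libraries had 302 and 409 normalised counts and AHR KO DMSO libraries 34.5 and 99.4. WT FICZ libraries had 111, 198 and 278 and AHR KO FICZ libraries 37.1 and 32.3. The groups did not overlap, although WT FICZ replicate 1 and AHR KO DMSO replicate 3 came close. The log2 difference was -2.56 ± 0.48 (SE) under DMSO (adjusted p = 0.0091, 5.90-fold lower) and -2.37 ± 0.44 under FICZ (adjusted p = 0.00396, 5.16-fold lower). Under DMSO the call was lost without WT DMSO replicate 3 (-2.34, adjusted p = 0.0678) or without AHR KO DMSO replicate 1 (-1.81, adjusted p = 0.0651). Without AHR KO DMSO replicate 3, the higher of the AHR KO DMSO libraries, the difference was -3.31 (adjusted p = 0.00786), so its size under DMSO depended on which AHR KO library was kept.

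The genes next to Hoxd13 were low but had their higher values in WT. Hoxd12 measured 7.79 and 6.59 normalised counts in WT DMSO, 0, 3.08 and 9.99 in WT FICZ, 0.801 and 0.975 in AHR KO DMSO and 0 in both AHR KO FICZ libraries. It was under the minimum and was not tested. Hoxd11 measured 26.1 and 30.8 in WT DMSO, 22.7, 17.5 and 17.9 in WT FICZ, 9.94 and 14.4 in AHR KO DMSO and 15.8 and 5.84 in AHR KO FICZ. The log2 differences of Hoxd11 were -1.18 ± 0.46 (SE) under DMSO and -0.92 ± 0.42 under FICZ. With adjusted p = 0.148 and 0.152 it was not called. Over 19 alternatives the difference under FICZ ran from -1.57 to -0.27, and 1 of them called it. Of its exon bases, 10.8% are shared with another transcript, Gm28309. Summed per kb, the Hoxd cluster stood at 201 ± 29.9 (SD, n = 2) in WT DMSO, 119.5 ± 43.4 (n = 3) in WT FICZ, 87.7 ± 37.9 (n = 2) in AHR KO DMSO and 69.9 ± 5.84 (n = 2) in AHR KO FICZ. Hoxd13 gave most of the sum in WT (143 and 78.8 per kb under DMSO and FICZ), whereas in AHR KO Hoxd8 gave more (45.9 and 33.6) than Hoxd13 (27.0 and 13.97).

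Hoxa13 (ENSMUSG00000038203, chr6:52257694-52260880), needed for the hindgut and the genital tract, differed between genotypes under FICZ and not detectably under DMSO. Under DMSO it measured 159.4 and 152 normalised counts in WT and 162 and 129.9 in AHR KO, which overlap (log2 difference -0.10 ± 0.30, adjusted p = 0.872). Under FICZ it measured 236, 177 and 157 in WT and 108 and 53.3 in AHR KO. There the log2 difference was -1.29 ± 0.27 (SE, adjusted p = 0.00807, 2.45-fold lower). Without AHR KO FICZ replicate 3, the lowest library, it was -0.79 (adjusted p = 0.0676). Whether the genotype difference itself changed with FICZ is the interaction given with the FICZ results, which did not pass.

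Hoxa7 (ENSMUSG00000038236, chr6:52214491-52221854) belongs to the central paralogue groups, which pattern the trunk. It measured 381 and 324 normalised counts in WT DMSO, 444, 283 and 333 in WT FICZ, 188 and 159.6 in AHR KO DMSO and 203 and 152 in AHR KO FICZ. Every AHR KO library was below every WT library, and the group means differed by about the same factor under either treatment, 2.02-fold under DMSO (log2 -1.01 ± 0.21, adjusted p = 0.0161) and 1.97-fold under FICZ (-0.98 ± 0.19, adjusted p = 0.00589). The call under DMSO was lost without WT DMSO replicate 2 (adjusted p = 0.113), AHR KO DMSO replicate 1 (0.058) or AHR KO DMSO replicate 3 (0.134), and that under FICZ without AHR KO FICZ replicate 3 (-0.77, 0.0697). Hoxaas3, an antisense transcript that covers 20.4% of the exon bases of Hoxa7, was lower in AHR KO as well (-0.89 ± 0.19, adjusted p = 0.016, under DMSO and -0.82 ± 0.17, adjusted p = 0.00722, under FICZ). Within those shared bases, reads of the pair can be told apart only if strand was used in counting.

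Hoxb8 (ENSMUSG00000056648, chr11:96281905-96285315), also a gene of the central groups, had the smallest of the called differences. It measured 676 and 637 normalised counts in WT DMSO, 618, 534 and 667 in WT FICZ, 476 and 506 in AHR KO DMSO and 447 and 491 in AHR KO FICZ. The nearest libraries of the genotypes were 534 and 506, so the gap was narrow. It was 1.34-fold lower in AHR KO under DMSO (log2 -0.42 ± 0.11, adjusted p = 0.0424) and 1.29-fold lower under FICZ (-0.36 ± 0.10, adjusted p = 0.0289). Under DMSO the call was lost in 8 of 20 alternatives (adjusted p up to 0.207), among them leaving out any 1 of the 4 DMSO libraries or WT FICZ replicate 1. Under FICZ it was lost in 5 of 20 (up to 0.16), among them leaving out WT FICZ replicate 1 or 3 or either AHR KO FICZ library.

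The most abundant member was level between the genotypes. Hoxb9 (ENSMUSG00000020875, chr11:96271457-96276595) measured 3022 and 3306 normalised counts in WT DMSO, 3347, 3323 and 3470 in WT FICZ, 3369 and 3331 in AHR KO DMSO and 3411 and 3198 in AHR KO FICZ. Its log2 differences of 0.08 ± 0.06 (SE) under DMSO and -0.03 ± 0.06 under FICZ were not called (adjusted p = 0.448 and 0.728). Hoxb7 measured 396 and 353 in WT DMSO, 313, 318 and 301 in WT FICZ, 319.5 and 327 in AHR KO DMSO and 264 and 291 in AHR KO FICZ. Its log2 differences of -0.21 ± 0.10 and -0.17 ± 0.09 were not called (adjusted p = 0.256 and 0.254). Hoxb5, whose AHR KO libraries (91.9 to 109) all lay below the WT libraries (114 to 148), was not called either (-0.28 ± 0.17 and -0.39 ± 0.15, adjusted p = 0.341 and 0.101).

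**Figure D3:**
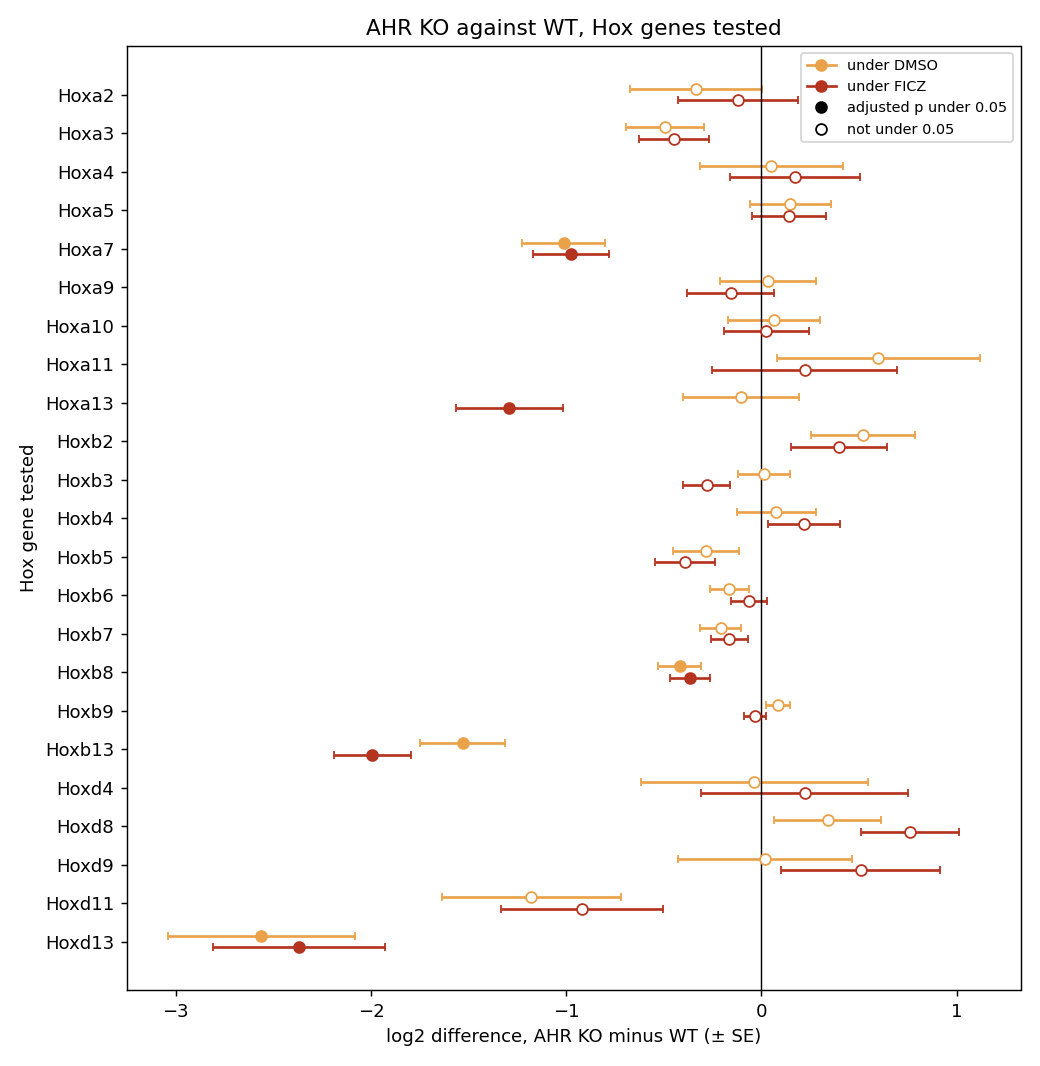
Difference between AHR KO and WT for the Hox genes tested, in cluster order, as log2(value + 1) of AHR KO minus WT with standard errors from limma. Orange is under DMSO and red under FICZ, and filled points have an adjusted p under 0.05. The filled points are all on the lower side, with Hoxd13 at -2.56 and -2.37 and Hoxb13 at -1.53 and -1.99.

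Other genes also moved with genotype in these libraries, and their part in the Hox differences was not tested. Of 13 epithelial markers, 6 were lower in AHR KO under each treatment, among them Epcam (-0.43 and -0.46 on the log2 scale) and Car1, a colonocyte enzyme (-2.25 and -2.47). Over all genes, 4.83% were called lower under DMSO and 10.5% under FICZ. Under FICZ, 2 of the 13 markers were higher in AHR KO, the stem cell receptor Lgr5 (1.46, adjusted p = 1.5e-05) and the keratin Krt18 (0.38, adjusted p = 0.00575). The summed level of the 13 overlapped between genotypes, at 313958 to 335284 normalised counts in WT and 303931 to 322863 in AHR KO. Of 12 fibroblast and muscle markers only Pdgfrb was tested, and it was lower in AHR KO (-1.60, adjusted p = 0.0155, and -1.55, adjusted p = 0.00533), so that the sum of the list was 61.2 to 115 in WT and 24.6 to 43.4 in AHR KO. The collagens Col1a1, Col1a2 and Col3a1 did not exceed 4.34. Of 6 neural and glial markers, whose sum was 132 to 185 in WT and 63.9 to 118 in AHR KO, Elavl4 was lower in AHR KO under FICZ (-2.10, adjusted p = 0.00661) and not called under DMSO (-1.65, adjusted p = 0.0565). Immune markers summed to 482 to 585 in WT and 506 to 726 in AHR KO, nearly all of it Cd68, and endothelial markers did not exceed a sum of 5.27. In bulk RNA, fewer cells of a type and less RNA per cell cannot be told apart.

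FICZ asks how the same genes answer to 4 h of AHR ligand. In WT, 1 of 24 members (4.17%) was called, against 30.8% of all genes, and in AHR KO 1 of 24 (4.17%), against 19.7%. The background depended on the processing. With the trend on GC content and length removed from each library, 2309 genes were called in WT, against 3928, and 665 in AHR KO, against 2509, with 1 and 0 members among them. The median size of the change among members was 0.17 on the log2 scale in WT and 0.19 in AHR KO. Over all genes it was 0.21 and 0.19. Such a size includes the error of measurement, and members had larger standard errors, as given above for AHR KO against WT under DMSO. Why few members were called was not tested. The members' median change was 0.00 in WT and -0.02 in AHR KO.

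Hoxd8 (ENSMUSG00000027102, chr2:74704615-74707933) fell under FICZ in WT. It measured 92.7 and 98.4 normalised counts in WT DMSO against 46.0, 52.5 and 63.3 in WT FICZ, with no overlap. The log2 change was -0.82 ± 0.25 (SE, adjusted p = 0.0311), 1.77-fold lower. In AHR KO it measured 91.5 and 160.4 under DMSO and 79.7 and 105 under FICZ, which overlap (-0.40 ± 0.27, adjusted p = 0.335). Between libraries of the same genotype and number it was lower under FICZ by 0.81 and 0.63 in WT and by 0.20 and 0.61 in AHR KO on the log2 scale. The difference between the changes was -0.42 ± 0.37 (adjusted p = 0.885), so the response was not shown to differ between genotypes. The call in WT was lost without WT DMSO replicate 2 (adjusted p = 0.109) or 3 (0.137), or without WT FICZ replicate 1 (0.0858) or 2 (0.0567). Under FICZ, Hoxd8 was the member with the highest log2 difference of AHR KO over WT, 0.76 ± 0.25, which did not pass (adjusted p = 0.0576).

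Hoxb6 (ENSMUSG00000000690, chr11:96292476-96301569) rose under FICZ in AHR KO. It measured 692 and 683 normalised counts in AHR KO DMSO and 822 and 931 in AHR KO FICZ, a log2 change of 0.35 ± 0.10 (SE, adjusted p = 0.0383, 1.27-fold higher). In WT it measured 748 and 793 under DMSO and 906, 828 and 1014 under FICZ, also without overlap, with a log2 change of 0.24 ± 0.09 that was not called (adjusted p = 0.0696). The changes did not differ detectably between genotypes (-0.10 ± 0.14, adjusted p = 0.95). With the trend on GC content and length removed from each library, the change in AHR KO was 0.21 (adjusted p = 0.22). It was also lost without either WT DMSO library, either AHR KO DMSO library, WT FICZ replicate 1 or AHR KO FICZ replicate 3 (adjusted p from 0.0503 to 0.203).

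Hoxb7, the neighbour of Hoxb6, measured lower under FICZ in all 4 pairs of libraries with the same genotype and number, by 0.31 and 0.23 in WT and by 0.28 and 0.17 in AHR KO on the log2 scale. Neither change was called (-0.27 ± 0.09 with adjusted p = 0.0578 in WT and -0.22 ± 0.10 with adjusted p = 0.162 in AHR KO). Hoxd13 had log2 changes of -0.94 ± 0.44 in WT and -0.74 ± 0.48 in AHR KO, which were not called (adjusted p = 0.132 and 0.306). Hoxb13 changed by 0.25 ± 0.20 in WT and -0.22 ± 0.22 in AHR KO, and Hoxa7 by -0.02 ± 0.19 and 0.02 ± 0.21, none of them called. Hoxb9 changed by 0.10 ± 0.06 in WT and -0.02 ± 0.06 in AHR KO.

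**Figure D4:**
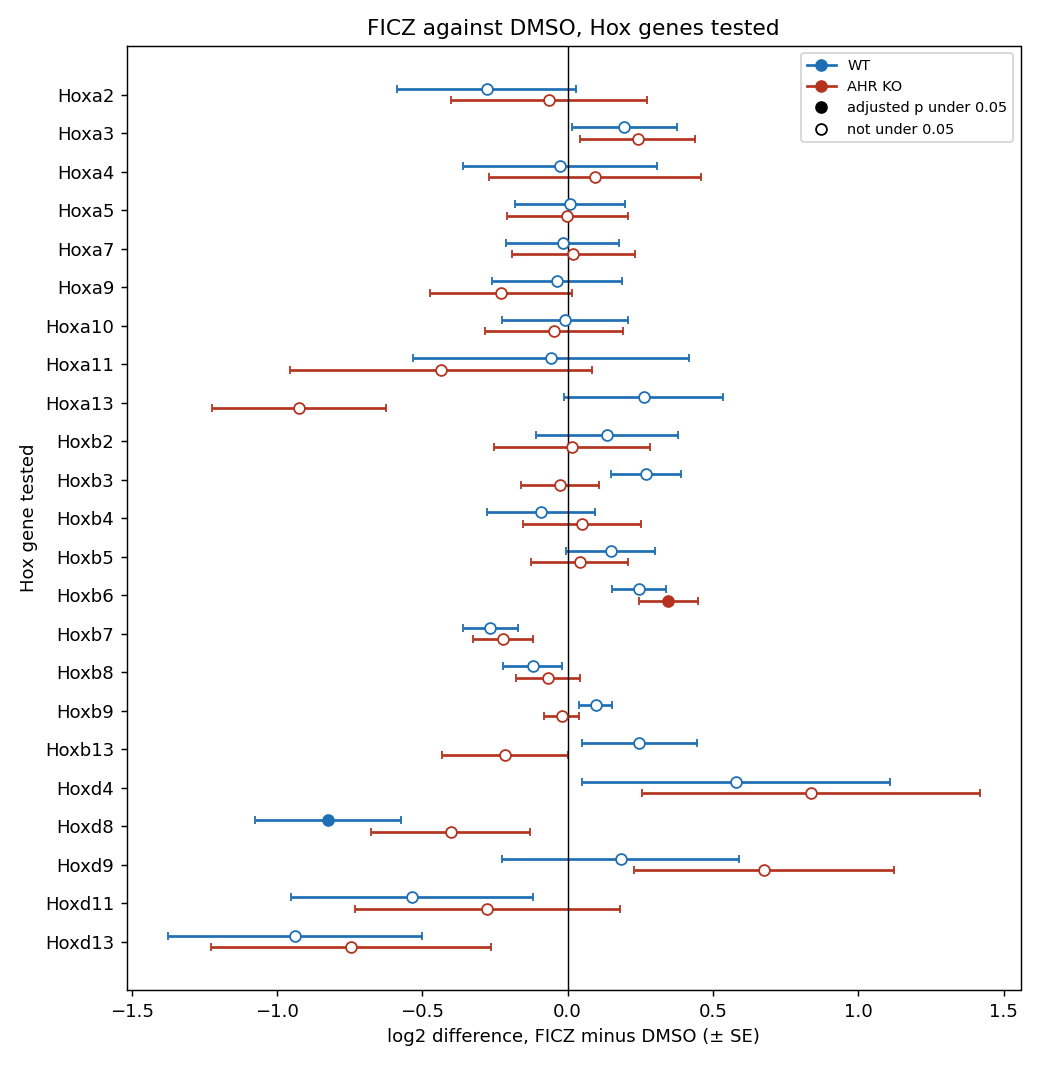
Difference between FICZ and DMSO for the Hox genes tested, as log2(value + 1) of FICZ minus DMSO with standard errors from limma, in WT (blue) and AHR KO (red). Filled points have an adjusted p under 0.05. The filled points are Hoxd8 in WT at -0.82 and Hoxb6 in AHR KO at 0.35.

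The interaction, which asks whether the change with FICZ differed between WT and AHR KO, called 0 of 24 members, against 0.447% of all genes in limma. At an unadjusted p under 0.05 there was 1 member, against 952 of 12741 genes. That member was Hoxa13, with a change of 0.26 ± 0.27 (SE) in WT and -0.93 ± 0.30 in AHR KO and a difference of 1.19 ± 0.40 (adjusted p = 0.458). Between libraries of the same genotype and number, Hoxa13 differed by 0.15 and 0.04 in WT and by -0.58 and -1.27 in AHR KO. The change in AHR KO did not pass the test (adjusted p = 0.0544) but did with a block for the library number (adjusted p = 0.0145), and without AHR KO FICZ replicate 3 it was -0.42 (adjusted p = 0.313) and without replicate 1 it was -1.43 (adjusted p = 0.0142).

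Transcripts other than Hox genes that lie within the clusters were also read. Of 46 such annotated genes, 4 were tested and 21 were listed at 0, among them Hotair of the Hoxc cluster and the microRNA genes Mir10a, Mir10b and Mir196b. The methods of the study name no small RNA library, so a 0 for a microRNA gene says nothing of its mature microRNA. Hoxaas3, given beside Hoxa7, was the only one called, and the summed level of the 46 was 618 to 709 normalised counts in WT and 467 to 537 in AHR KO. Of 8 genes that flank the clusters, 5 were tested. Evx1, a homeobox gene next to Hoxa13, measured 54.6 and 46.9 in WT DMSO, 110.5, 67.6 and 85.1 in WT FICZ, 27.1 and 25.5 in AHR KO DMSO and 37.5 and 20.8 in AHR KO FICZ. It was lower in AHR KO under FICZ (-1.59 ± 0.29, adjusted p = 0.00386) and not called under DMSO (-0.92 ± 0.32, adjusted p = 0.109). The other flanking genes tested, Skap2, Calcoco1, Smug1 and Mtx2, were not called in any comparison.

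Hox proteins bind DNA together with TALE homeodomain partners of the Pbx, Meis and Pknox families. Of 11 TALE genes listed, which also include the Tgif family, 8 were tested. In AHR KO against WT, 1 was higher under DMSO, and 1 was higher and 1 lower under FICZ. FICZ in WT called 1 higher and 2 lower, and in AHR KO 0. Pbx3 fell under FICZ in WT (-0.50, adjusted p = 0.0136) and measured -0.40 in AHR KO, not called (adjusted p = 0.0681), and Pbx2 was lower in AHR KO under FICZ (-0.39, adjusted p = 0.0128). Tgif2, a TALE repressor, fell under FICZ in WT (-0.54, adjusted p = 0.0379) and was higher in AHR KO under FICZ (0.99, adjusted p = 0.00278). Meis1 did not exceed 3.27 normalised counts in any library.

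Of 14 ParaHox and regional factors of the gut, 6 were tested. In AHR KO, 3 were lower under DMSO, against 4.83% of all genes, and 5 under FICZ, against 10.5%. Cdx1, Cdx2, Evx1 and Pdx1 were among the 5. Cdx1 and Cdx2, caudal-type factors known to act on Hox genes in the embryo, differed by -1.15 and -0.43 under DMSO and by -1.43 and -1.08 under FICZ. In WT both rose under FICZ, by 0.40 and 0.80. In AHR KO the values were 0.12 and 0.15, not called, and neither interaction passed (adjusted p = 0.72 and 0.0747). Over the whole list, FICZ called 3 higher in WT and 0 in AHR KO, and the interaction was called for 1 gene.

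Polycomb proteins hold Hox genes silent and Trithorax proteins keep them active. Of 30 Polycomb genes, all tested, limma called 0 between the genotypes under DMSO (6 at an unadjusted p under 0.05), and under FICZ 3 were higher and 3 lower. Among these, Aebp2 was lower (-0.51, adjusted p = 0.000282) and Cbx6 higher (0.60, adjusted p = 0.000959). FICZ in WT called 3 higher and 8 lower, with Eed, a core subunit of the complex PRC2, at -0.65 (adjusted p = 0.000432) and Suz12, another, at -0.26 (adjusted p = 0.00215). FICZ in AHR KO called 1 higher and 5 lower, with Suz12 at -0.31 (adjusted p = 0.00367) and Eed at -0.32 (adjusted p = 0.0295), and the interaction was called for neither. Of 20 Trithorax and COMPASS genes, 1 was lower in AHR KO under DMSO, and 1 was higher and 4 were lower under FICZ, with Kmt2c at -0.28 (adjusted p = 0.004). FICZ in WT called 4 higher and 4 lower, with Psip1 at -0.59 and Setd1b at 0.61, and in AHR KO 2 higher and 2 lower, with these at -0.43 and 0.50. Over all genes, the shares called in either direction were 9.05% between the genotypes under DMSO and 20.0% under FICZ. For FICZ against DMSO they were 30.8% in WT and 19.7% in AHR KO. Fewer genes were called there with the GC and length trend removed, as given above. The difference of these lists from those shares was not tested.

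Retinoic acid, a derivative of vitamin A, is a classic inducer of 3' Hox genes. Of 18 genes of its synthesis, receptors and breakdown, 11 were tested. Under DMSO, 1 was higher in AHR KO, Stra6, which takes up retinol into cells, by 1.62 ± 0.18 on the log2 scale (adjusted p = 0.000676). Under FICZ, 2 were higher, Stra6 (1.93) and Aldh1a1 (1.13), and 5 were lower, among them Rarb (-1.07) and Dhrs3 (-0.92). FICZ in WT called 6 higher and 2 lower, with Rxrb at 0.71 (adjusted p = 0.0003), and in AHR KO 1 higher, Rxrb at 0.56 (adjusted p = 0.00317). The shares called over all genes, and their dependence on the processing, are those given with the Polycomb and Trithorax genes. None of the low-numbered members Hoxa2, Hoxb2 and Hoxd4 was called in any comparison. Their log2 differences between the genotypes ran from -0.33 to 0.52 with standard errors of 0.24 to 0.58. Among the other low-numbered members, Hoxa3 measured -0.49 ± 0.20 (SE) under DMSO and -0.45 ± 0.18 under FICZ, and Hoxb3 0.02 ± 0.13 and -0.28 ± 0.12. Neither passed in limma (adjusted p = 0.162 and 0.112 for Hoxa3, 0.958 and 0.136 for Hoxb3). Hoxa3 was called in 2 of 20 alternatives under each treatment.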

How the data were processed

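RNA-seq of mouse colon organoids was analysed in 9 libraries. The deposited values are a signal per gene, read counts that the authors had normalised and that need not be whole. The submitters' processing notes name STAR 2.5.2a, RSEM 1.2.31, DESeq2 1.16.1 and GRCm38, and the methods of the study name stranded libraries, summarizeOverlaps as the counter and the UCSC known genes of mm10 as the annotation. Which of these made the deposited values, which carry Ensembl identifiers, their scaling and the use of strand in counting are not given in the sources used here. Only 32.7 to 54.3% of low values lay within 0.02 of whole multiples of a read, so whole reads could not be recovered and count models were not applied.

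From the deposited signal, log2(value + 1) of genes with a mean of 10 or more was fitted with limma 3.58.1 (R 4.3.3; 4 group coefficients, eBayes with trend). Fold changes on this scale understate those of low genes. P-values (two-sided) were adjusted by Benjamini-Hochberg over all 12741 genes, and those under 0.05 were called. Tables were made with Python 3.11.15 and pandas 2.3.3. Symbols and exon lengths were from GENCODE M21, to which 48349 identifiers matched. The script was tested on simulated data. Members are accounted for in the counts, but a few genes are not reported here by name. Those with a mean of 10 or more and called, or among the 5 highest per kb, are described in full, and of other lists the genes called at least 2-fold or with the lowest adjusted p are named. Evx1 belongs to the flanking and the ParaHox lists. The members and lists were chosen with earlier results of these data known. Alternatives were the pseudocount, filter, scaling, GC and length trend, samples in the fit, robust eBayes, replicate block, line as random effect, and leaving out each library. A fixed block for the line was added after seeing the data.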

Additional observations from a re-analysis of the deposited data

How the results depend on the processing

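No called member changed direction in any comparison that called it, under any alternative run. The count of members called for FICZ in WT, 1, was 0 with no filter and 2 with quantile normalization, and 0 to 2 when 1 library was left out. For FICZ in AHR KO, 1, it was 0 with no filter or with the GC and length trend removed, 2 with a filter at a mean of 100, with quantile normalization, with the replicate block (number or line as factor) and with the line as random effect, and 0 to 2 when 1 library was left out. The second gene was Hoxb7 in WT with quantile normalization and Hoxa13 in AHR KO. With a filter at a mean of 100, which removes Hoxd8, the 1 gene called in WT was Hoxb7 (adjusted p = 0.0488). For AHR KO against WT the counts were 1 to 5 (from 4) under DMSO and 2 to 6 (from 5) under FICZ with 1 library left out, lowest without AHR KO DMSO replicate 1 and without AHR KO FICZ replicate 3. Under DMSO it was 2 without WT DMSO replicate 2 or 3 or AHR KO DMSO replicate 3. Where an arm was left with 1 library, it was assumed to vary like the other groups. The interaction gave 0 throughout, and a fit to only the groups compared does not apply to it. The share of Hoxb was 77.4% with the length of the longest transcript, against 80.8%. Libraries with the same number and genotype deviated together only weakly (r = 0.035 to 0.050 across genes), so the replicate block is not used as the main result. Between the genotypes the replicate block gave 4 calls under DMSO, with Hoxa3 gained (adjusted p = 0.0439) and Hoxb8 lost (0.0644), and 7 under FICZ, with Hoxa3 (0.0335) and Hoxd8 (0.0241) gained. Hoxb13 kept its call in 20 of 20 alternatives under either treatment, and Hoxd13 in 18 under DMSO and 20 under FICZ. Scaling moved the median of all genes by less than 0.1. Depth limits the low members most: Hoxd10, Hoxd12 and the Hoxc genes lay near the floor of 3 counts. Where not stated above, the cause of a lost call was not tested.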
